A study of Mus musculus with 29 samples.

Results

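The Cyp4a genes of the mouse encode cytochromes P450 that hydroxylate the far (omega) end of fatty acids such as laurate and arachidonate. The 6 genes described here, Cyp4a10, Cyp4a12a, Cyp4a12b, Cyp4a14, Cyp4a31 and Cyp4a32, were taken by symbol from the 38124 genes of the deposited tables, and all 6 were among the 12788 genes that passed the low-count filter in liver. They were chosen by their liver levels across the diets in these same libraries, which were known beforehand, so their liver levels and differences between diets are given as a description without a test. Cyp4a10, Cyp4a14, Cyp4a31 and Cyp4a32 are treated as the PPARα-responsive group and Cyp4a12a and Cyp4a12b as the growth-hormone-responsive group, a grouping that comes from the known regulation of the family.

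Omega-hydroxylation is the first step by which liver turns fatty acids into dicarboxylic acids, which peroxisomes then shorten. PPARα is a nuclear receptor that binds fatty acids, works as a dimer with RXR, and switches on Cyp4a10 and Cyp4a14 in fasting or on fibrate drugs, which makes them standard readouts of its activity. Cyp4a12a is a male-biased enzyme that makes 20-HETE from arachidonate, and its expression in male liver depends on androgen and on the pulsatile growth hormone pattern that acts through STAT5b.

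The animals were male C57BL/6 mice, an inbred strain. They were purchased at 14 weeks and began the diets at 4 months, and RNA of liver and of hindlimb muscle was sequenced. Control mice were given 95% of what they ate freely, 13.6 kcal per day, and the sources used here do not give the fat of their diet. Soy, fish and lard mice were restricted to 60%, 8.6 kcal per day, and are named for the fat of their diet. Because the controls were fed at a different intake, soy, fish or lard against control compares restriction on that fat with near-free feeding, while the restricted diets differ from each other in fat source.

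There were 3 control livers and 4 each from soy, fish and lard mice. Muscle came from 4 control, 3 soy, 3 fish and 4 lard mice, and each library is from 1 numbered mouse. The submitters discarded 1 control liver and 1 fish muscle. Livers held 11315231 to 21278699 exon reads and muscles 12580798 to 27106865. The soy livers of mice 1073 and 1159 stood apart, with 5.47% and 5.41% of gene reads outside exons against 7.90% to 8.92% in the other 13 livers. Hepatocyte markers (7 genes such as Alb and Apob, none at 0) summed to 98986 to 117545 CPM (exon reads scaled to the total of each library) in control livers. They summed to 136069 to 154688 CPM in soy, 131172 to 153043 CPM in lard and 117501 to 142335 CPM in fish livers. All soy and lard livers were above every control, while fish livers overlapped the controls. The part of these markers in the results below was not tested. Fish liver 1123 held 2667 CPM of 8 skeletal muscle markers, against 135 to 284 CPM in the other livers. The summed markers of 9 other cell types overlapped between control and restricted livers, except lymphocyte markers, which were lower in lard. In bulk tissue, fewer cells of a type cannot be told apart from less RNA per cell.

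All 6 genes lie in 1 cluster on chromosome 4 (GRCm38, coordinates of the deposited tables). Cyp4a12a (ENSMUSG00000066071) spans 115299046 to 115332815 and Cyp4a12b (ENSMUSG00000078597) 115411624 to 115439034. Cyp4a14 (ENSMUSG00000028715) spans 115486200 to 115496142 and is on the minus strand, with the other members on the plus strand. Cyp4a10 (ENSMUSG00000066072) spans 115518264 to 115533649, Cyp4a31 (ENSMUSG00000028712) 115563649 to 115579015 and Cyp4a32 (ENSMUSG00000063929) 115600969 to 115621602. No annotated exon of another gene overlapped theirs in GENCODE M21. Cyp4a29 and Cyp4a30b, also of this family, have an exon length of 0 in the tables and so no exon reads, and were not measured.

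The members are so alike that their sequences set how well reads can be told apart. The 60 coding bases around the heme-binding signature of cytochromes P450 show this, taken from GENCODE M21 transcripts and located by translating each coding sequence. Capitals mark bases that differ from Cyp4a10, and every window crosses the junction of exons 11 and 12. The genomic spans, intron included, are chr4:115529490-115532561 for Cyp4a10, chr4:115574938-115577966 for Cyp4a31, chr4:115614868-115621464 for Cyp4a32, chr4:115487281-115489817 for Cyp4a14 (minus strand), chr4:115328974-115331864 for Cyp4a12a and chr4:115435228-115438087 for Cyp4a12b.
Cyp4a10: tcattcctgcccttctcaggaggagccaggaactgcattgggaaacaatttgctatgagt
Cyp4a31: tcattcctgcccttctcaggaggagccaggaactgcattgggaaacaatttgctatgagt
Cyp4a32: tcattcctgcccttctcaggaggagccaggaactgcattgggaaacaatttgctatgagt
Cyp4a14: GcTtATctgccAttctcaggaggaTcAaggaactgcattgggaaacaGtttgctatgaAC
Cyp4a12a: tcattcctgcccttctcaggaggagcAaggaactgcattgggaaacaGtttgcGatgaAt
Cyp4a12b: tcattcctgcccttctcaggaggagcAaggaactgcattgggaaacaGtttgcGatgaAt

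Cyp4a10, Cyp4a31 and Cyp4a32 are identical in this window, as are Cyp4a12a and Cyp4a12b, so a read from it has no single home. Cyp4a14 differs from Cyp4a10 at 10 of the 60 bases and the Cyp4a12 pair at 4. Over the whole coding sequence Cyp4a10 is 96.6% identical to Cyp4a31 and 97.2% to Cyp4a32, and Cyp4a12a is 98.5% identical to Cyp4a12b. Cyp4a14 is 75.4% to 76.1% identical to the other 5 members. Sequence likeness does not follow the grouping by regulation, since Cyp4a10 is closer to Cyp4a12a (80.2%) than to Cyp4a14 (76.1%).

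Other stretches do separate the near-identical members. Within a single exon, the 60 coding bases at which Cyp4a10, Cyp4a31 and Cyp4a32 differed most from one another were bases 214 to 273 in exon 2, at chr4:115519654-115519713, chr4:115565034-115565093 and chr4:115602284-115602343. Capitals mark differences from Cyp4a10, 3 in Cyp4a31 and 9 in Cyp4a32.
Cyp4a10: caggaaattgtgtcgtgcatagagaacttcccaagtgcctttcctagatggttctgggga
Cyp4a31: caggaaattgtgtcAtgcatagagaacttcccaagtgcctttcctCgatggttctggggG
Cyp4a32: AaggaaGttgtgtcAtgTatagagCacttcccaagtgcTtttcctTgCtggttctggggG

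For the Cyp4a12 pair the same search gave coding bases 631 to 690 in exon 6, at chr4:115326629-115326688 and chr4:115432882-115432941. Only 4 bases differ there, in capitals in the second sequence.
Cyp4a12a: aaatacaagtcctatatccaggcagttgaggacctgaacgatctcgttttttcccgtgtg
Cyp4a12b: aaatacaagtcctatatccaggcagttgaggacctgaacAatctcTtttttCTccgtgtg

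The deposited tables give both total exon reads and unique exon reads, those the authors' mapping placed at 1 position. Over the 15 livers the unique share was above 99.9% for Cyp4a14, 93.9% for Cyp4a31, 87.5% for Cyp4a10, 75.9% for Cyp4a32, 66.1% for Cyp4a12a and 64.0% for Cyp4a12b. The order of the members is the reverse of their share of 50-base coding windows found exactly in another member, which was 0% for Cyp4a14, 31.6% for Cyp4a31, 40.5% for Cyp4a10, 46.7% for Cyp4a32 and 54.8% for each of the Cyp4a12 pair. The sources used here do not say how the authors divided reads with several positions. Values below are total exon reads as CPM unless unique reads are named, and the level of any 1 of the Cyp4a12 pair, or of Cyp4a32, is uncertain to that extent.

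**Figure D1:**
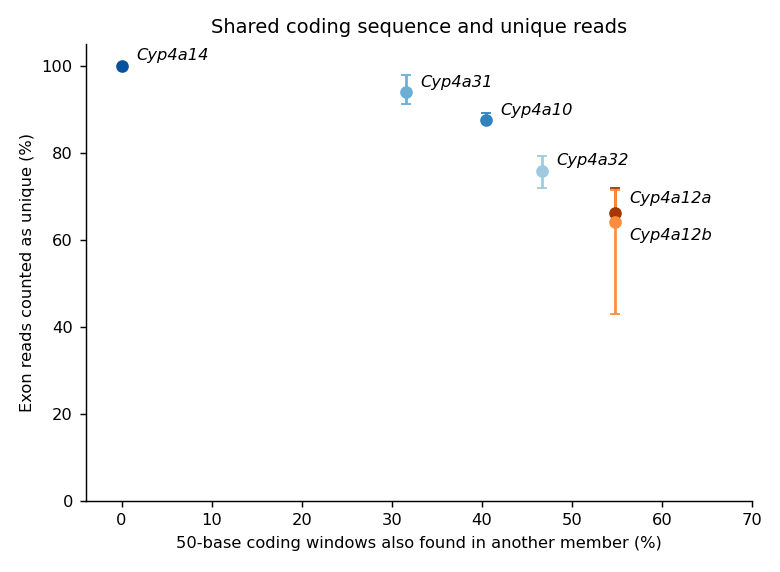
Share of exon reads counted as unique (percent, pooled over 15 livers, with bars from the lowest to the highest liver) against the share of 50-base coding windows found exactly in another member (percent), 1 point per gene. Unique share falls from above 99.9% in Cyp4a14, which shares no window, to 64.0% in Cyp4a12b, which shares 54.8%.

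Per length of exon the 6 genes differed widely in level. The deposited RPKM, which scale reads to exon length and library size, had medians over the 15 livers of 853 for Cyp4a14, 527 for Cyp4a10, 31.8 for Cyp4a32, 13.2 for Cyp4a31, 5.26 for Cyp4a12a and 0.847 for Cyp4a12b. Cyp4a14 was above Cyp4a10 in each of the 15 livers. In control livers Cyp4a12a, at 23.5, 65.8 and 32.6 RPKM, overlapped Cyp4a32 at 31.8, 39.3 and 47.2 RPKM. Cyp4a12b, at 8.08, 17.6 and 7.68 RPKM, overlapped Cyp4a31 at 7.92, 7.83 and 15.7 RPKM. In fish livers Cyp4a32 (38.7 to 49.1 RPKM), Cyp4a31 (23.2 to 27.5 RPKM) and Cyp4a12a (2.09 to 17.5 RPKM) did not overlap.

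Cyp4a14 and Cyp4a10, the abundant PPARα targets, were at their highest in the livers of fish mice. Cyp4a14 was at 3111, 3064, 3566 and 3770 CPM in fish livers and at 1563, 1430 and 2327 CPM in control livers. In soy livers it was at 2815, 1056, 1623 and 2913 CPM (mice 1065, 1073, 1141 and 1159), and in lard livers at 720, 1705, 2674 and 761 CPM (mice 1100, 1101, 1102 and 1130). Every fish liver was above all 11 others, while soy and lard livers lay on both sides of the controls and varied more among themselves.

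The means were 3378 ± 346 CPM (SD, n = 4) in fish, 1774 ± 484 CPM (n = 3) in control, 2102 ± 911 CPM (n = 4) in soy and 1465 ± 925 CPM (n = 4) in lard livers. The fitted log2 fold change of Cyp4a14 was 0.89 ± 0.43 (SE) for fish against control, 1.08 ± 0.39 for fish against lard and 0.50 ± 0.39 for fish against soy. For soy against control it was 0.39 ± 0.42 and for lard against control -0.19 ± 0.42, both within 1 SE of 0.

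Cyp4a10 followed Cyp4a14 liver by liver. It was at 1480, 1512, 1847 and 2099 CPM in fish livers (mean 1734 ± 295) and at 628, 831 and 1215 CPM in control livers (891 ± 298). Soy livers had 1283, 351, 495 and 1367 CPM (874 ± 525), and lard livers 327, 746, 1458 and 435 CPM (742 ± 510). The lowest fish liver exceeded the highest of the rest by little, 1480 against 1458 CPM in lard liver 1102. The log2 fold change was 0.92 ± 0.51 for fish against control, 0.80 ± 0.47 for fish against soy and 1.10 ± 0.47 for fish against lard.

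The ratio of Cyp4a14 to Cyp4a10 stayed between 1.72 and 3.28 over the 15 livers, while the levels themselves ranged 5.23-fold and 6.41-fold. The median ratio was 2.60 in soy livers and 1.92, 1.98 and 2.02 in control, fish and lard livers. The highest ratios were 3.01 and 3.28 in soy livers 1073 and 1141. Lard livers 1100 and 1130, which had the lowest Cyp4a14 levels, were at 2.20 and 1.75.

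Cyp4a31, a close relative of Cyp4a10 at 1.41% to 5.09% of its level, had the tightest fish group of all members relative to its mean. It was at 75.3, 66.3, 71.5 and 63.9 CPM in fish livers (69.2 ± 5.11) and at 21.6, 21.3 and 43.01 CPM in control livers (28.7 ± 12.4). Soy livers had 36.9, 4.94, 17.8 and 35.1 CPM (23.7 ± 15.2) and lard livers 7.99, 24.9, 37.9 and 12.8 CPM (20.9 ± 13.4). The lowest fish liver was well above the highest other liver, control 1121. The log2 fold change for fish was 1.22 ± 0.56 against control, 1.36 ± 0.51 against soy and 1.60 ± 0.51 against lard, each the largest among the 4 PPARα-responsive members.

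With unique reads alone, which hold 91.1% to 97.9% of its reads in each liver, those 3 Cyp4a31 values were 1.20, 1.35 and 1.58. The level of Cyp4a31 as a percent of Cyp4a10 was 1.41% in soy liver 1073 and 5.09% in fish liver 1067, the lowest and highest of 15.

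Cyp4a32 did not share this pattern. It was at 82.0, 76.5, 64.4 and 68.4 CPM in fish livers (72.9 ± 7.91) and at 52.9, 65.4 and 78.9 CPM in control livers (65.7 ± 13.0), which overlap. Soy livers, at 44.5, 17.6, 38.7 and 33.8 CPM (33.7 ± 11.6), were below every control and every fish liver. Lard livers had 33.6, 45.6, 71.5 and 49.2 CPM (49.99 ± 15.8). The log2 fold change was -0.84 ± 0.26 for soy against control, 0.94 ± 0.25 for fish against soy and 0.10 ± 0.26 for fish against control.

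For Cyp4a32 the library of soy mouse 1073 was lowest. Without the soy livers of mice 1073 and 1159 its log2 fold change for soy against control was -0.60 and for fish against soy 0.70. From unique reads the main values were -0.76 and 0.91. Its exon length of 1530 bases in the tables is close to its coding sequence of 1527 bases, so reads in untranslated parts were hardly counted for this gene, unlike for the other members at 2109 to 2509 bases.

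**Figure D2:**
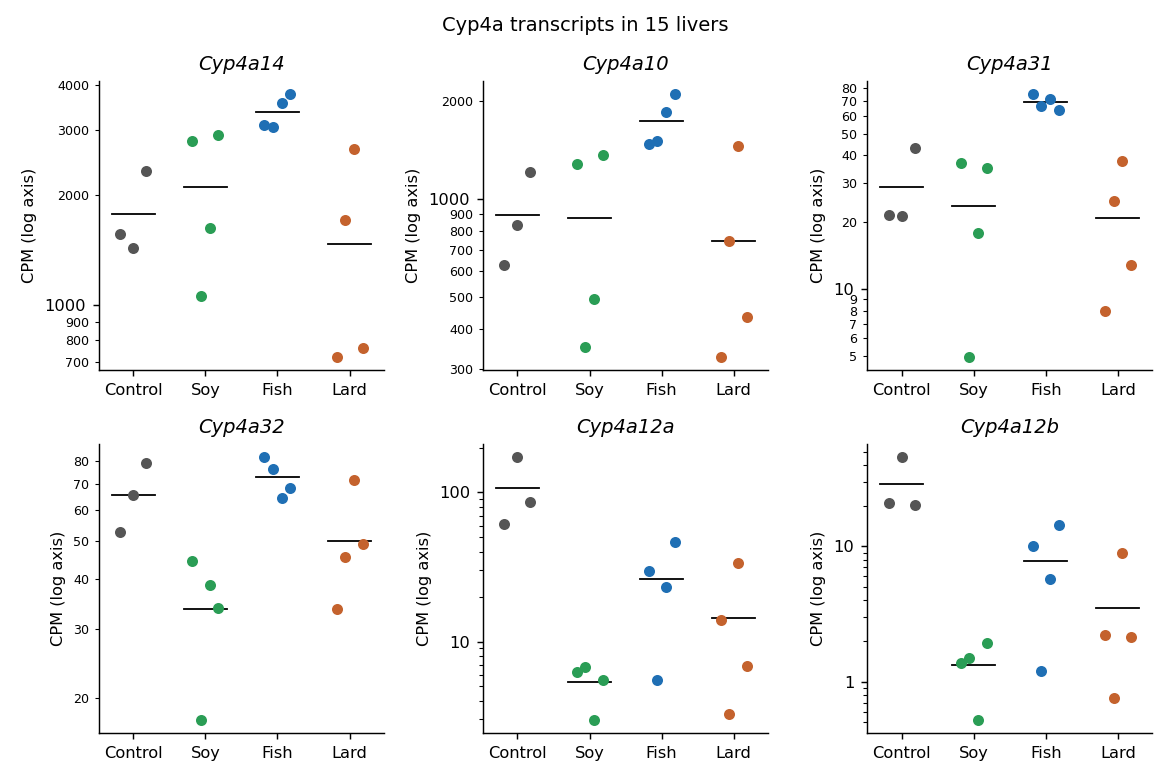
Level of each Cyp4a gene in CPM (log axis) in 15 livers by diet, 1 point per mouse, with the mean as a line (n = 3 control and 4 each of soy, fish and lard). Fish livers lie above all others for Cyp4a14, Cyp4a10 and Cyp4a31, and control livers lie above all others for Cyp4a12a and Cyp4a12b.

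Cyp4a12a and Cyp4a12b, the growth-hormone-responsive pair, were highest in the near-freely fed controls and lower on each restricted diet. Cyp4a12a was at 61.8, 173 and 86.3 CPM in control livers (107 ± 58.5, mice 1095, 1120 and 1121). It was at 6.203, 6.72, 2.99 and 5.48 CPM in soy livers (5.35 ± 1.65), a mean 20.03-fold lower. The soy livers were the most even of the 3 restricted groups.

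Fish livers held 29.6, 5.51, 23.4 and 46.5 CPM of Cyp4a12a (26.3 ± 16.9, mice 1067, 1123, 1124 and 1125) and lard livers 13.9, 3.25, 33.5 and 6.89 CPM (14.4 ± 13.5). Fish liver 1123, the liver with the most skeletal muscle markers, was at the level of the soy livers, while the other 3 fish livers were above every soy liver. The part of muscle RNA in the level of liver 1123 was not tested. The log2 fold change against control was -4.18 ± 0.74 for soy, -2.07 ± 0.67 for fish and -2.82 ± 0.69 for lard. Between restricted diets it was 2.11 ± 0.68 for fish against soy, 1.36 ± 0.67 for lard against soy and 0.75 ± 0.64 for fish against lard.

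Cyp4a12b repeated the order at a lower level, with 2.35 ± 0.75 for fish against soy, 1.30 ± 0.78 for lard against soy and 1.06 ± 0.68 for fish against lard. It was at 21.0, 45.9 and 20.1 CPM in control livers (29.0 ± 14.6), 1.38, 1.505, 0.523 and 1.93 CPM in soy livers (1.34 ± 0.591), 9.99, 1.20, 5.75 and 14.5 CPM in fish livers (7.86 ± 5.70) and 2.21, 0.760, 8.93 and 2.12 CPM in lard livers (3.51 ± 3.68). These values rest on few reads in restricted livers, from 7 in soy liver 1141 to 278 in fish liver 1125, against 297 to 669 in controls. The log2 fold change against control was -4.27 ± 0.78 for soy, -1.92 ± 0.68 for fish and -2.97 ± 0.72 for lard.

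Control liver 1120 held the most of both genes. Without it the log2 fold changes for soy, fish and lard against control were -3.59, -1.49 and -2.23 for Cyp4a12a and -3.72, -1.37 and -2.42 for Cyp4a12b. Lard liver 1102 held the most of both among lard livers. Without it, lard against control was -3.64 for Cyp4a12a and -4.003 for Cyp4a12b, lard against soy 0.53 and 0.27, and fish against lard 1.57 and 2.09. Without fish liver 1125, the highest fish liver, fish against lard was 0.26 and 0.52. Without soy livers 1073 and 1159 the values for soy against control were -4.46 and -4.77. With unique reads alone they were -4.10 and -4.23. Cyp4a12a was 2.84 to 6.28 times Cyp4a12b in CPM over the 15 livers.

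Of the 6 genes, 3 (Cyp4a14, Cyp4a10 and Cyp4a31) were higher in all fish livers than in all 11 others, a separation seen in 0.993% of all genes tested. Another 2 (Cyp4a12a and Cyp4a12b) were lower in all 12 restricted livers than in all controls, as were 1.88% of genes. For soy against control 3 members were lower without overlap, as were 11.3% of genes. For fish against control 3 were higher and 2 lower, as were 7.17% and 5.19% of genes, and for lard against control 2 were lower, as were 12.7%. For fish against soy 4 were higher, as were 9.34%. For fish against lard 3 were higher, as were 12.6%, and for lard against soy no member separated, with 4.21% of genes doing so in either direction. The members were chosen for these patterns, so the counts describe them and are no test.

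**Figure D3:**
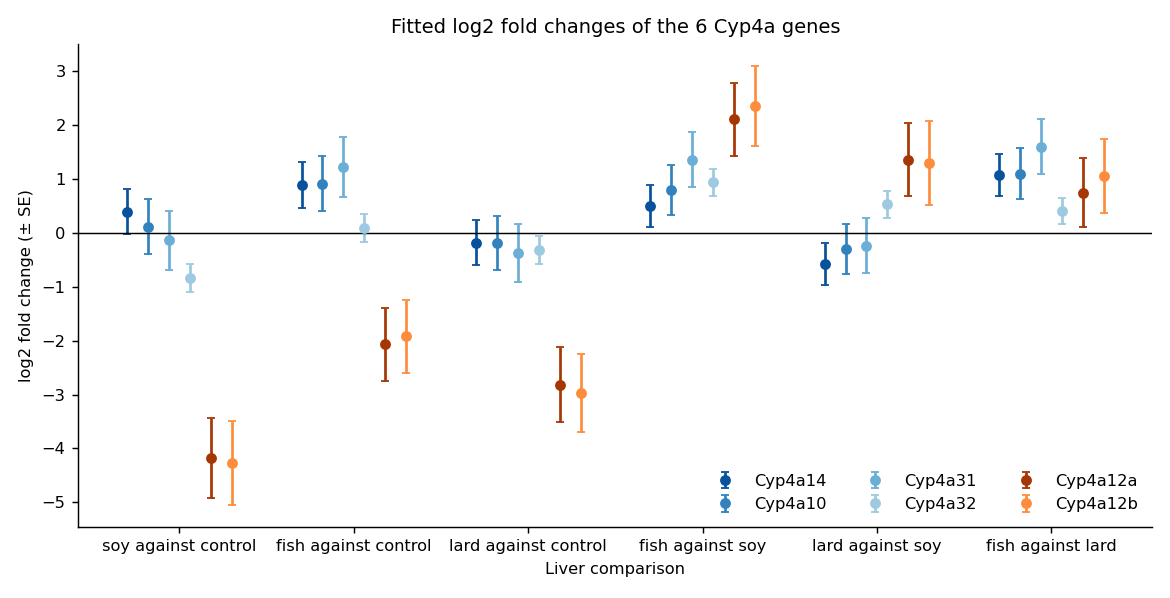
Fitted log2 fold changes (points) with SE (bars) of the 6 Cyp4a genes in 6 liver comparisons, from 15 livers in 1 fit; the first 3 comparisons share the control livers. The Cyp4a12 pair lies between -4.27 and -1.92 against control on every restricted diet. Cyp4a31, Cyp4a10 and Cyp4a14 lie at 0.50 to 1.60 in fish against control, soy and lard. The Cyp4a12 pair also lies above 0 in fish against soy and fish against lard.

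The contrast of the 2 groups was summarized as the log2 ratio of summed CPM (with 0.5 CPM added to each sum). It was 4.77, 3.42 and 5.10 in control livers (mean 4.43 ± 0.89, SD), 9.01, 7.36, 9.08 and 9.10 in soy livers (8.64 ± 0.86), 6.89, 9.35, 7.55 and 6.61 in fish livers (7.60 ± 1.23) and 6.04, 9.13, 6.63 and 7.05 in lard livers (7.21 ± 1.34). Every restricted liver was above every control. Differences between restricted diets were -1.04 for fish against soy, -1.43 for lard against soy and 0.39 for fish against lard. The pooled SD between livers of 1 diet was 1.12. It is the spread of single livers, wider than the uncertainty of a diet mean, and these differences were not tested.

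On all 3 restricted diets the growth-hormone-responsive sum was below every control, and in the fish group the PPARα-responsive sum of each liver was also above every control. In soy livers the growth-hormone-responsive sum was 6.68 ± 2.14 CPM against 136 ± 72.8 CPM in controls, while the PPARα-responsive sum was 3033 ± 1455 CPM against 2759 ± 784 CPM. In fish livers both sums differed from control, at 34.1 ± 22.6 and 5254 ± 629 CPM. In lard livers they were 17.9 ± 17.1 and 2277 ± 1457 CPM. Lard liver 1102 had the highest level of all 6 members among the 4 lard livers, so within the lard group both sums were highest in the same liver.

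**Figure D4:**
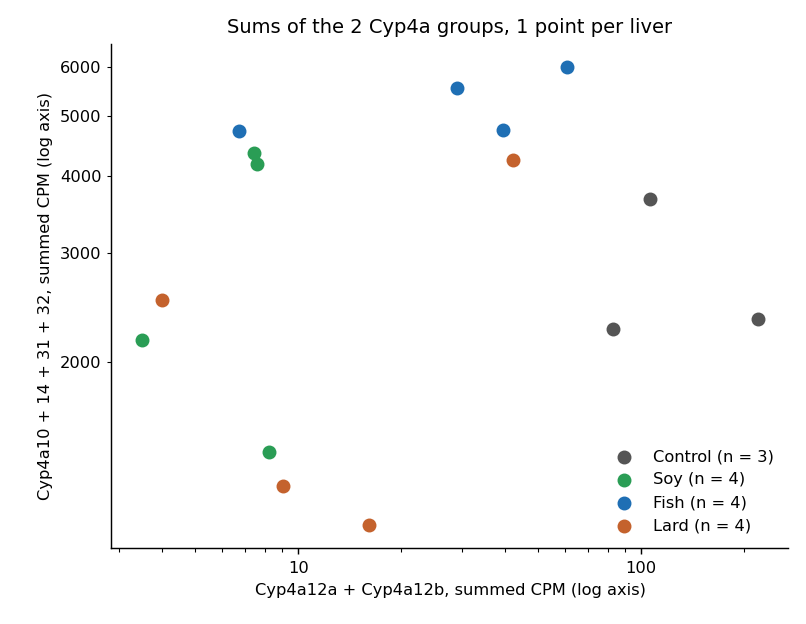
Summed CPM of Cyp4a10, Cyp4a14, Cyp4a31 and Cyp4a32 (vertical, log axis) against summed CPM of Cyp4a12a and Cyp4a12b (horizontal, log axis), 1 point per liver, coloured by diet. Control livers lie to the right at 82.8 to 219 CPM, soy livers to the left at 3.51 to 8.22 CPM, and fish livers at the top at 4719 to 6002 CPM.

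The profile of each member over the 15 livers was compared with those of 9206 genes of at least 5 CPM, as the root mean square (RMS) difference of centred log2 CPM. The nearest gene to Cyp4a10 was Cyp4a14, at 0.26, then Slc27a1 at 0.36 and Cyp4a31 at 0.41. Cyp4a14 was nearest to Cyp4a10, Slc27a1 (0.38) and Ehhadh (0.48), and Cyp4a31 to Cyp4a10, Cyp4a14 (0.53) and Slc27a1 (0.57). Slc27a1 encodes a fatty acid transport protein and Ehhadh an enzyme of peroxisomal beta-oxidation. Slc27a1 was at 25.4 ± 3.11 CPM in fish livers and 13.0 ± 5.52, 10.5 ± 3.80 and 8.96 ± 2.36 CPM in control, soy and lard livers.

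Cyp4a12a and Cyp4a12b were nearest to each other at 0.29 and then to Elovl3, an elongase of male-biased expression, at 0.80 for both members. The third gene was Mup11 (0.91), a major urinary protein gene, for Cyp4a12a, and Serpina1e (0.92), a serine protease inhibitor gene, for Cyp4a12b. Cyp4a32 was nearest to none of its family but to Vwa8 (0.21), Acsl1 (0.24), which activates long-chain fatty acids, and Cpox (0.26), an enzyme of heme synthesis. The median over all genes searched was 0.87 for Cyp4a10, 0.77 for Cyp4a14, 1.10 for Cyp4a31, 0.57 for Cyp4a32, 1.74 for Cyp4a12a and 1.83 for Cyp4a12b. Cyp4a32 was farther than its median from the other PPARα-responsive members, at 0.62 from Cyp4a10, 0.64 from Cyp4a14 and 0.73 from Cyp4a31. The RMS difference also depends on how strongly each gene varied. The centred profile of Cyp4a32 had an RMS of 0.52, against 0.83 for Cyp4a10, 0.73 for Cyp4a14 and 1.07 for Cyp4a31. These distances therefore do not show whether Cyp4a32 rose and fell with the other members. Differences across the groups, 1.51 to 1.84, were near the medians of the Cyp4a12 pair. The livers are shared by all profiles, and members of near-identical sequence may also share reads.

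Other PPARα targets, among them enzymes and transport proteins of fatty acids, a lipid droplet protein and a hormone, were tested in the same fit over all genes. Of 38 tested, 0 passed in any of the 6 liver comparisons by the edgeR test, where 1.17% (soy), 0.383% (fish) and 0.508% (lard against control), 0.0938% (fish against soy), 0% (lard against soy) and 0.203% (fish against lard) of all genes did. At an unadjusted p under 0.05, 2, 2 and 0 were higher and 9, 6 and 11 lower in soy, fish and lard against control. DESeq2 called 0 higher and 4, 3 and 2 lower there. In fish against soy, lard against soy and fish against lard, 6, 1 and 7 were higher and 2, 3 and 3 lower. DESeq2 called 2, 1 and 1 higher and 0 lower in these. In the same order of comparisons, 22.3%, 8.93%, 9.99%, 23.1%, 17.3% and 9.98% of all genes had an unadjusted p under 0.05. DESeq2 called 866, 165, 274, 813, 151 and 164 of the 12788 genes. These values are the background for the unadjusted and DESeq2 counts of the other lists below. The list median was 0.29 for fish against lard, with 34 of 38 values above 0, against a median of 0.006 over all genes. For fish against control it was -0.10, with 13 of 38 above 0, although the 3 Cyp4a members named above lay at 0.89 to 1.22. For lard against control it was -0.34 with 4 of 38 above 0, and for soy against control -0.16.

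The genes of the list nearest to the threshold in fish livers had values on both sides of 0, and none passed. Against control, Fgf21, a fasting hormone made by liver, was at 1.06 ± 0.509 CPM in fish and 5.18 ± 1.34 CPM in control livers (log2 -2.28 ± 0.48, adjusted p = 0.0562). Hilpda, a lipid droplet protein, was at -0.97 ± 0.21 against control (adjusted p = 0.0613). Slc27a1 was at 1.37 ± 0.29 for fish against lard (adjusted p = 0.0749) and 1.08 ± 0.29 for fish against soy (adjusted p = 0.106). Cpt1a, the carnitine transferase of mitochondrial fatty acid entry, lay at -0.48 ± 0.15 for fish against lard (adjusted p = 0.275).

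Of 10 genes of PPARα itself, its partners and coregulators, 1 rose in lard against control, where 0.18% of all genes rose. In the other 5 comparisons 0 passed, with 0 to 2 at an unadjusted p under 0.05 and 0 or 1 by DESeq2. The called gene was Lpin1, a phosphatidate phosphatase that also acts as a coactivator with PPARα, at 1003 ± 410 CPM in lard and 225 ± 100.4 CPM in control livers (log2 2.25 ± 0.39, adjusted p = 0.0213). The call was lost without lard liver 1100 or 1101 or control liver 1095 or 1120, with adjusted p up to 0.0971. Ppara was at 239 ± 43.9 CPM in control, 123 ± 96.4 in soy, 192 ± 16.7 in fish and 212 ± 30.5 CPM in lard livers.

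Genes that act before and after the hydroxylases were also measured. Of 4 electron donors of P450 enzymes, 0 passed in any comparison. By unadjusted p, 1 passed in each comparison except lard against soy, where 0 did, and DESeq2 called 1 in all, in soy against control. Por, the reductase that all microsomal P450 enzymes need, was at 847 ± 136 CPM in soy and 569 ± 236 CPM in control livers (log2 0.72 ± 0.24, adjusted p = 0.115).

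Of 22 genes of the later steps, such as alcohol and aldehyde dehydrogenases and peroxisomal beta-oxidation, 0 passed. Of these, 3 to 9 were at an unadjusted p under 0.05 in a comparison, and DESeq2 called 0 to 4. Crot, which readies shortened acyl chains to leave the peroxisome, was at 607 ± 107 CPM in fish, 638 ± 221 in control, 296 ± 110 in soy and 281 ± 77.4 CPM in lard livers. Its log2 fold change was 0.97 ± 0.25 for fish against lard (adjusted p = 0.153). Of 8 tested Cyp4 genes outside the Cyp4a cluster, 0 passed, 0 to 3 were at an unadjusted p under 0.05, and DESeq2 called 2 (lower) in soy against control and 0 elsewhere. Cyp4v3, an omega-hydroxylase with 66.9% unique reads, came nearest at -0.59 ± 0.14 for soy against control (adjusted p = 0.0539).

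The growth-hormone side was examined through sex-biased genes, a liver program set by the pattern of growth hormone release. These lists were drawn up with earlier results of these livers known and are no independent evidence of direction. Of 23 male-biased genes tested, without the Cyp4a12 pair, 6 fell in soy against control, 1 in fish and 4 in lard, and none rose. The call in fish was Ugt2b38, at a mean of 0.517 CPM in fish livers and 4.38 CPM in controls. A gene so near 0 in restricted livers passed the filter through the controls and could hardly rise. The absence of rises is in part set by the filter. DESeq2 called 13, 2 and 9 lower, and 368, 111 and 170 of all genes lower. By edgeR, the share of all genes that fell was 0.766%, 0.305% and 0.328%. The list medians were -1.51, -0.73 and -1.21, and 22 of 23 values were below 0 in each comparison, which share their controls.

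Elovl3 fell by 3.01 ± 0.56 in soy, from 60.3 ± 29.0 to 6.51 ± 3.36 CPM (adjusted p = 0.0181). Mup20, a urinary protein that serves as a male pheromone, fell by 3.15 ± 0.57 in lard, from 2482 ± 457 to 259 ± 80.9 CPM (adjusted p = 0.0236). The complement genes C9, C8a and C6 fell by 1.04 ± 0.21, 1.76 ± 0.35 and 1.30 ± 0.27 in soy. C9 and C8a also passed in lard against control, at log2 -1.21 ± 0.21 and -1.70 ± 0.35. Ugt2b38, a glucuronosyltransferase, fell on all 3 diets, by 3.98 ± 0.69 in soy, 3.08 ± 0.63 in fish and 3.63 ± 0.68 in lard, from 4.38 ± 3.09 CPM in controls, with 75.1% unique reads. At no more than 1.02 CPM in any restricted liver, its fold changes rest on few reads.

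Of 27 female-biased genes listed, 22 passed the count filter and were tested. Of these, 6 rose in soy, 3 in fish and 5 in lard and none fell, where 0.399%, 0.0782% and 0.18% of all genes rose. DESeq2 called 12, 6 and 10 higher, and 498, 54 and 104 of all genes higher. Genes near 0 in controls, such as Cux2 (0.543 CPM) and Sult3a1 (0.178 CPM), passed the filter through restricted livers and could hardly fall. The absence of falls is in part set by the filter. Cyp2b13 rose on all 3 diets, to 199 ± 151, 180.3 ± 154 and 128 ± 72.2 CPM from 0.977 ± 0.749 CPM. Sult2a7, a sulfotransferase, rose in soy by 3.61 ± 0.64 and in fish by 4.23 ± 0.65.

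Between restricted diets 0 of the 23 male-biased and 0 of the 22 female-biased genes passed by edgeR. At an unadjusted p under 0.05, 6 male-biased genes were higher and 8 female-biased genes lower in fish than in soy, and DESeq2 called 3 and 5 of them. In fish against lard 4 and 8 were, with 0 and 3 called by DESeq2, and in lard against soy at most 2 of a list, with 1 and 0. Of all genes, 23.1%, 9.98% and 17.3% had such a p in these 3 comparisons, in either direction. The list medians for fish against soy were 0.60 and -0.97.

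Of 16 genes of the growth hormone pathway in liver, 1 rose in soy against control, where 0.399% of all genes rose. In the other comparisons 0 passed, with 1 to 6 at an unadjusted p under 0.05 and 0 to 2 called by DESeq2. The called gene was Cux2, a transcription factor of female liver that is also counted in the female-biased list. Near 0 in controls, Cux2 passed the filter through restricted livers and could hardly fall. It was at 0.543 ± 0.0276 CPM in control and 34.5 ± 15.9 CPM in soy livers (log2 6.09 ± 1.13, adjusted p = 0.0166). It was at 4.999 ± 1.12 in fish (adjusted p = 0.0687) and 4.84 ± 1.12 in lard (adjusted p = 0.0726), which did not pass.

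These counts depend on single livers. Without soy livers 1073 and 1159 the counts for soy against control were 0 male-biased, 3 female-biased and 0 growth hormone pathway genes. Without control liver 1095, 1120 or 1121 they were 1, 1 and 2 male-biased genes and 2, 2 and 3 female-biased genes, and Cux2 did not pass. Without soy liver 1065 they were 10 male-biased and 11 female-biased genes. Without soy liver 1141 there were 11 female-biased genes, and without 1159 there were 3 male-biased genes. The growth hormone pathway count was 2 without soy liver 1065, 1073 or 1141. In fish, the 3 female-biased genes were 0 without control liver 1120 or 1121. The 1 male-biased call in fish was lost without any control, fish or lard liver, and the count was 2 without soy liver 1141. In lard, the 4 male-biased genes were 0 without lard liver 1100 or 1101 or control liver 1095 or 1121, and 2 without control liver 1120 or lard liver 1130. The 5 female-biased genes were 0 without control liver 1121, 1 without 1120, 2 without 1095 or lard liver 1100 or 1101, and 3 without lard liver 1130 or soy liver 1065.

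Hindlimb muscle was not used to choose the genes, so the members could be tested there. Cyp4a14 and Cyp4a10 passed the count filter at low levels. The other 4 members had 0 to 6 reads per library and were not tested. Cyp4a14 was at 7.22, 6.24, 2.48 and 5.82 CPM in control muscles, 5.003, 2.62 and 2.23 CPM in soy, 10.98, 5.37 and 3.66 CPM in fish and 3.36, 6.12, 6.13 and 3.88 CPM in lard muscles. The groups overlapped, and fish muscle 1067 was highest of 14.

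Cyp4a10 was at 1.27 to 3.84 CPM in control, 1.34 to 1.75 CPM in soy, 1.35 to 6.38 CPM in fish and 1.66 to 3.12 CPM in lard muscles. Neither gene passed in any of the 6 muscle comparisons (edgeR quasi-likelihood test, adjusted p of 0.347 or more), where 0% of all genes passed in 5 comparisons and 0.00763% in fish against control. The only unadjusted p under 0.05 was that of Cyp4a10 in fish against soy, at log2 1.19 ± 0.52 (edgeR adjusted p = 0.9997), and DESeq2 called neither gene. The value for Cyp4a14 in that comparison was 0.99 ± 0.50. For soy, fish and lard against control, 17.4%, 18.4% and 17.3% of all muscle genes had an unadjusted p under 0.05. DESeq2 called 242, 395 and 318 of them there. For fish against soy 2.20% had such a p, and DESeq2 called 0.

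Control muscles 1071 and 1120 stood apart, with 266 and 1136 CPM of 7 neutrophil markers against at most 2.54 CPM in the other 12. Leaving out both gave no call. Hepatocyte markers were present in the muscle libraries at 229.9 to 696 CPM, highest in fish muscle 1067 and lowest in soy muscle 1141, as was Cyp4a14. Cyp4a14 amounted to 0.566% to 2.14% of the hepatocyte marker sum in muscles and 0.471% to 2.80% in livers. In the 13 mice with both tissues, the muscle level was 0.103% to 0.510% of the liver level for Cyp4a14 and 0.161% to 0.593% for the hepatocyte markers. The part of liver RNA in these muscle values was not tested.

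**Figure D5:**
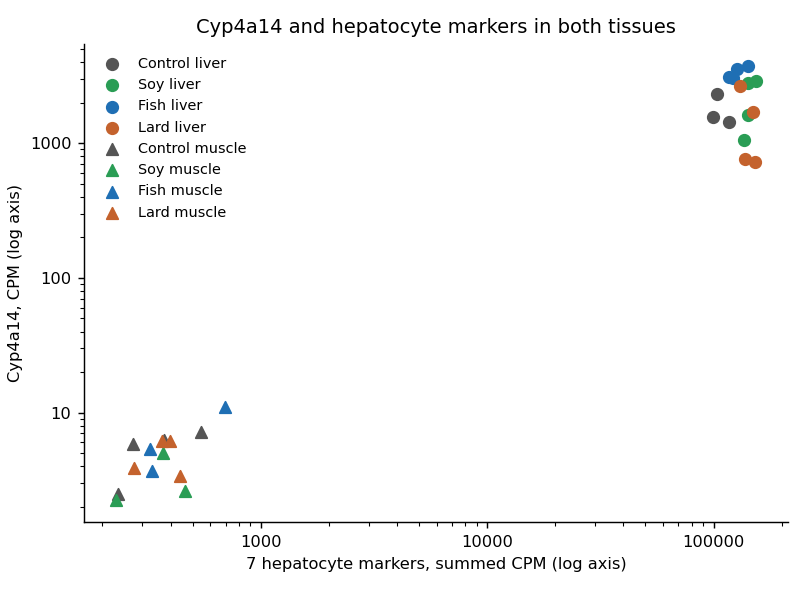
Cyp4a14 in CPM (log axis) against the summed CPM of 7 hepatocyte markers (log axis) in 15 livers (circles) and 14 muscles (triangles), coloured by diet. Muscles lie at 2.23 to 10.98 CPM of Cyp4a14 and 229.9 to 696 CPM of the markers, livers at 720 to 3770 CPM and 98986 to 154688 CPM.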

How the data were processed

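Each deposited table covers a pair of diets in 1 tissue and lists per gene and library, per the file headers, 3 read counts (all exon reads, exon reads of unique position, gene reads). It also lists the authors' RPKM. Per the labels, RNA was extracted with Trizol and libraries were made with a TruSeq kit. The submitters' processing notes name FastQC and GRCm38. Aligner, annotation release and strand setting: not given in the sources used here. All exon reads went into edgeR 4.0.16 under R 4.3.3, with TMM scaling and the filterByExpr filter (minimum count 10). The quasi-likelihood F test was run with the 4 diets of a tissue in 1 fit, on 12788 liver and 13104 muscle genes, and Benjamini-Hochberg adjusted over all genes at 0.05. SE is the size of the log2 fold change over the square root of F. CPM use all exon reads of a library, and each mouse counts as 1 replicate. Each p-value sets a diet difference against the spread between mice of a diet. Nothing says how mice were housed, so whether mice of a diet were independent is not known. Symbols came from GENCODE M21 (36345 of 38124 matched). The procedure was tested on simulated data.

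The members, groups and gene lists were chosen with earlier results of these data known. Genes named from a list are up to 5 that passed in a comparison, smallest p first, or up to 2 of smallest p where none passed; the text uses a part of these. Ppara was named after its values were seen. Profile likeness names the 3 nearest genes (log2 CPM with a prior count of 2). Alternatives were DESeq2 1.42.0 (size factors, Wald test), no filter, unique reads, library number as a block, both outlying soy livers left out and each library left out. Added after seeing the data were the muscle and list-gene alternatives and a covariate for how the tables write missing exon lengths.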

Additional observations from a re-analysis of the deposited data

How the results depend on the processing

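No member fold change in liver moved by more than 1 SD between livers of 1 diet in any of 792 refits, and none of the 120 recomputed group ratio differences did. Of 22 refits per comparison 15 leave out 1 liver, which can hardly shift a difference by 1 SD, so this rule says little about stability. Small values changed sign on leaving out 1 liver. Cyp4a10 in lard against control (-0.18) ranged from -0.75 to 0.11, and the group ratio difference for fish against lard (0.39) from -0.20 to 1.03. No called list gene changed sign. Counts of all genes called by edgeR moved more: they were 149, 49, 65, 12, 0 and 26 for soy, fish and lard against control, fish against soy, lard against soy and fish against lard. With the DESeq2 Wald test they were 866, 165, 274, 813, 151 and 164. Without soy livers 1073 and 1159 they were 26 for soy against control, 137 for fish against control, 236 for lard against control, 0 for fish against soy and 98 for fish against lard. The added exon-length covariate gave 458 for soy against control and 22 for fish against soy. On leaving out 1 liver the ranges were 34 to 1625, 15 to 81, 12 to 85, 0 to 2092, 0 to 780 and 0 to 43. For lard against soy, 2212 genes had an unadjusted p under 0.05.

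The library number of the labels was tried as a replicate block, which gave 97, 26, 39, 4, 0 and 13 calls in the same order. Livers that share a number did not deviate together: over 21 such pairs r was -0.158 to 0.155, with 3 above 0.1, so the numbers are not taken to pair the mice. Under that block the calls of Cyp2a4 and Sult3a1 in lard and of Ugt2b38 in fish were lost. Depth limits Cyp4a12b in restricted livers and 4 of the 6 genes in muscle. In muscle, 0 of 228 refitted values of Cyp4a10 and Cyp4a14 passed.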
